A study of Oryza sativa Indica Group with 8 samples.

Results

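SD1, the semi-dwarf gene of rice, encodes a gibberellin 20-oxidase also named GA20OX2. It was examined here with 3 other listed genes of gibberellin metabolism, GA20OX1, GA3OX2 and CYP714C2, in roots of 2 rice cultivars with and without drought. The genes were found by matching each name, or a synonym of it, to the gene table and then to the probe sets that the array's annotation assigns to that gene alone. SD1 (LOC4325003) matched 1 probe set and CYP714C2 (LOC4351346) matched 2, called probe set 1 and probe set 2 here. These 3 probe sets of 57258 tested stand for 2 of the 4 genes, among 17905 genes measured. GA20OX1 and GA3OX2 matched no symbol or synonym in the table and are not analysed here.

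Gibberellins are diterpenoid hormones that promote stem elongation, germination and growth. Early enzymes (CPS, KS, KO and KAO) build the carbon skeleton in plastids and the endoplasmic reticulum. Soluble dioxygenases then finish the hormone, first the 20-oxidases such as SD1 and then the 3-oxidases such as GA3OX2, and other enzymes inactivate it. Loss-of-function alleles of SD1 gave the short, lodging-resistant rice of the Green Revolution. CYP714C2 belongs to a cytochrome P450 family whose rice members EUI1 and the CYP714B proteins oxidise gibberellins.

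The 8 arrays fall into 4 groups of 2: drought-stressed Nootripathu, control Nootripathu, drought-stressed IR20 and control IR20. Per the labels, Nootripathu is a deep-rooting landrace that tolerates drought and yields little, and IR20 is an indica variety with shallow roots, semi-dwarf stature, high yield and susceptibility to drought. Plants grew in pipes 1 m long and 15 cm wide, and water was withheld from the stressed plants from 40 days after sowing. Soil was shaken off stressed roots by tapping, and control roots were washed with de-ionised water. Drought and this handling cannot be told apart. The labels call the arrays biological replicates without saying more, and the p-values measure only the spread between these samples. The SD1 allele of either cultivar is not given in the sources used here. Probe sequences were not used, so a difference between cultivars is one of hybridisation signal, and a part of mismatched probes in it was not tested.

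Values are RMA signals on the log2 scale, with array medians of 5.29 to 5.35 and lowest signals of 2.53 to 2.64 on the 8 arrays. The second array of stressed IR20 stood apart in 2 of 3 measures of 3′ minus 5′ signal. Its poly-A control transcripts, which are not root RNA, read 5.32 higher at the 3′ than at the 5′ end on the log2 scale. On the other 7 arrays this was 2.08 to 2.58. The actin 3′ minus 5′ signal of the second stressed IR20 array was 6.98, against 5.32 to 5.94 on the others. For GAPDH both stressed IR20 arrays stood apart, at 1.26 and 1.20, against 0.49 to 0.76 on the other 6 arrays. Among root markers the silicon transporter LSI1 read 13.44 to 14.55 on all arrays, while its partner LSI2 read 6.26 and 6.85 in stressed IR20, against 13.60 and 13.51 in control IR20. In Nootripathu LSI2 read 9.69 and 9.84 in stressed and 13.25 and 13.35 in control roots. Among photosynthetic markers GLK1, a regulator of chloroplast development, read 3.39 to 3.96, and RBCS, CAB2R and PETC read 6.98 to 7.62, 5.62 to 6.97 and 4.89 to 7.48. In bulk roots, fewer cells of a type and less RNA per cell cannot be told apart.

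In control roots SD1 was higher in Nootripathu than in IR20, and in stressed roots the cultivars' arrays overlapped. SD1 read 5.53 and 5.41 in stressed Nootripathu and 6.47 and 6.61 in control Nootripathu. It read 5.71 and 5.49 in stressed IR20, and 5.28 and 5.53 in control IR20. Both control Nootripathu arrays lay above the other 6 arrays, and the other 3 groups overlapped one another. By mean log2 level the order was control Nootripathu (6.54), stressed IR20 (5.60), stressed Nootripathu (5.47) and control IR20 (5.41), and among the last 3, neighbours did not differ beyond their spread.

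**Figure D1:**
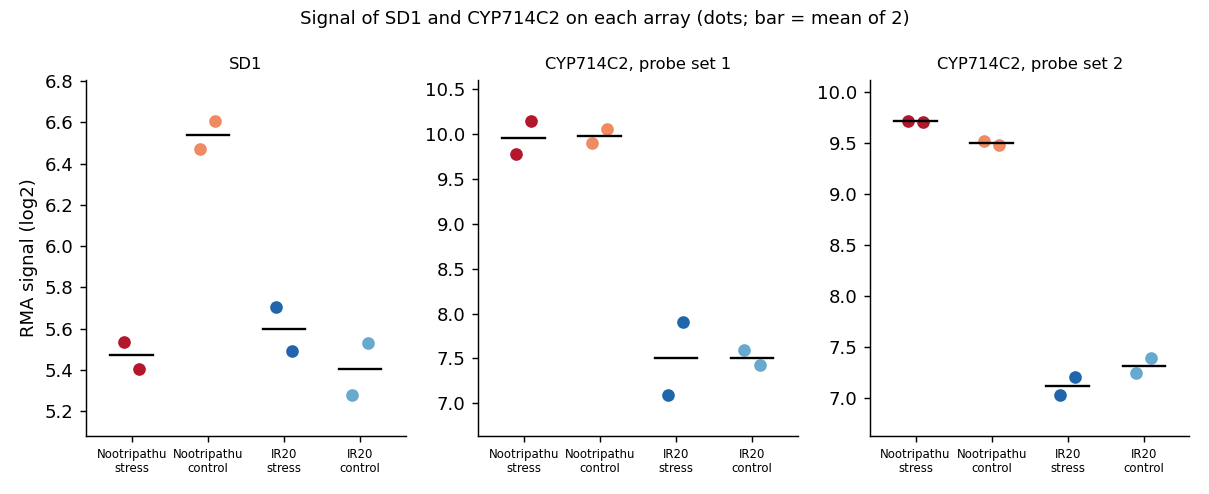
RMA signal (log2) of SD1 and of each CYP714C2 probe set on every array, with dots for arrays and a bar for the mean of 2. SD1 was high on the 2 control Nootripathu arrays alone, and both CYP714C2 probe sets were higher on every Nootripathu array than on every IR20 array. Each panel has its own vertical scale.

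The stressed cultivars differed in SD1 by -0.13 ± 0.13 (log2, SE, n = 2 per group; limma adjusted p = 0.54), with a 95% interval of -0.43 to 0.18. The control cultivars differed by 1.13 ± 0.13, a 2.19-fold higher signal in Nootripathu (limma adjusted p = 0.000592, interval 0.83 to 1.44). Among all 57258 probe sets, 3107 (5.43%) differed at least as much in control roots, in either direction. With 2 arrays per group, an exact permutation test of a single gene cannot go below p = 0.333, so the calls rest on the variance shared across probe sets.

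CYP714C2 was several-fold higher in Nootripathu than in IR20, with and without drought, on both of its probe sets. Probe set 1 read 9.77 and 10.15 in stressed Nootripathu, 9.90 and 10.05 in control Nootripathu, 7.09 and 7.91 in stressed IR20, and 7.59 and 7.43 in control IR20. No Nootripathu array overlapped an IR20 array, whereas within each cultivar the stressed and control arrays overlapped. The cultivar difference was 2.46 ± 0.25 in stressed roots (5.49-fold, limma adjusted p = 0.00033) and 2.47 ± 0.25 in control roots (5.53-fold, limma adjusted p = 0.000287). In control roots 641 probe sets (1.12%) differed as much.

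The identifier of CYP714C2 probe set 2 marks probes that may match several transcripts. It read 9.72 and 9.71 in stressed Nootripathu, 9.52 and 9.48 in control Nootripathu, 7.03 and 7.21 in stressed IR20, and 7.24 and 7.40 in control IR20. Again the cultivars were separate on every array. The difference was 2.59 ± 0.11 in stressed roots (6.02-fold, limma adjusted p = 2.72e-06) and 2.18 ± 0.11 in control roots (4.52-fold, limma adjusted p = 6.50e-06).

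In stressed roots, 2 of the 3 probe sets of SD1 and CYP714C2 were higher in Nootripathu and none was lower, where 22% of all probe sets passed in either direction, 10.7% as higher and 11.3% as lower. In control roots all 3 were higher, where 19.3% of all probe sets passed, 8.37% as higher and 10.9% as lower. With so few probe sets these counts describe only SD1 and CYP714C2.

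Under drought SD1 fell in Nootripathu and did not pass the test in IR20. The Nootripathu difference, stress minus control, was -1.07 ± 0.13 (2.10-fold lower, limma adjusted p = 0.000408, interval -1.37 to -0.76), and the groups did not overlap. In IR20 it was 0.19 ± 0.13 (limma adjusted p = 0.296, interval -0.11 to 0.50), with overlapping arrays. The drought effect in Nootripathu minus that in IR20 was -1.26 ± 0.19 (limma interaction term, adjusted p = 0.00279, interval -1.69 to -0.83). Without the second stressed IR20 array it was -1.37. Outside control Nootripathu SD1 read 5.28 to 5.71, close to the array medians of 5.29 to 5.35. A part of signal level in the IR20 result and in this interaction was not tested.

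Drought differences of CYP714C2 did not pass in either cultivar. On probe set 1 they were -0.02 ± 0.25 in Nootripathu (interval -0.59 to 0.56) and -0.01 ± 0.25 in IR20 (interval -0.59 to 0.57), with limma adjusted p of 0.973 and 0.985. On probe set 2 they were 0.21 ± 0.11 in Nootripathu (interval -0.04 to 0.46) and -0.20 ± 0.11 in IR20 (interval -0.45 to 0.05), with limma adjusted p of 0.189 and 0.188. The drought effects on that probe set differed by 0.41 ± 0.15 (limma adjusted p = 0.0998). Without the second stressed IR20 array this difference was 0.50 and passed (limma adjusted p = 0.0454).

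Of the 3 probe sets, 1 fell in Nootripathu under drought and none rose, beside 31.9% of all probe sets past the threshold, 14.4% as lower and 17.5% as higher. In IR20 none passed in the limma test, and none had an unadjusted p under 0.05, beside 38.1% of all probe sets, 21% as higher and 17.1% as lower. The interaction passed for 1, SD1, with 19.6% of all probe sets passing, 8.99% as lower and 10.6% as higher, and 2 had an unadjusted p under 0.05.

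Signals scaled to the poly-A control transcripts, in place of RMA's own scaling, shifted the median of all probe sets under drought by -0.89 in Nootripathu and -0.61 in IR20, and the cultivar difference by -0.08 in stressed and 0.20 in control roots. On that scale SD1 changed under drought by -1.96 in Nootripathu and -0.42 in IR20, and only the Nootripathu fall passed. The scaling moves every probe set of a comparison by the same amount. The size of the SD1 fall relative to the median probe set is therefore that of the deposited signals, and is no separate check. CYP714C2 then fell in Nootripathu by 0.91 and 0.68 on its probe sets, which are its deposited differences moved by the same shift of -0.89. With that scaling, 3.35% of the called probe sets were higher under drought in Nootripathu and 12.2% in IR20, against 54.7% and 55.0% as deposited. Of the called cultivar differences in control roots 56.3% were higher in Nootripathu, against 43.4% as deposited. The 3′ poly-A control signals used for the scaling were 11.09 and 10.51 in stressed IR20 and 11.09 and 10.67 in stressed Nootripathu. The scaling passes these gaps between replicates to every probe set, so a call can be lost through added spread alone. The value of 10.51 is from the second stressed IR20 array, whose poly-A controls stood apart.

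Markers of dividing cells moved with both comparisons. The 7 measured of 11 listed summed to linear signals of 1749 to 1874 in stressed Nootripathu, 1291 to 1320 in control Nootripathu, 472 to 688 in stressed IR20 and 2845 to 2866 in control IR20. All 7 were higher in Nootripathu in stressed roots and 6 of 7 were lower in Nootripathu in control roots. Under drought 4 rose and 1 fell in Nootripathu, and all 7 fell in IR20. The 6 measured root markers of 10 summed to 12218 to 12664 in stressed Nootripathu, 36262 to 36482 in control Nootripathu, 13712 to 14237 in stressed IR20 and 40572 to 41826 in control IR20, sums in which LSI1 had the highest signal. Their mean log2 signals were 7.69 to 7.75 in stressed Nootripathu, 9.68 on both control Nootripathu arrays, 6.68 to 7.07 in stressed IR20 and 10.18 to 10.27 in control IR20. In stressed roots 3 of the 6 were higher in Nootripathu and none lower (median difference 0.37), and in control roots 4 were lower and none higher. Under drought 5 fell in Nootripathu and all 6 fell in IR20. The 4 photosynthetic markers of 10 summed to 248 to 263, 307 to 346, 365 to 459 and 430 to 459 in those groups, in the same order. Beside these marker counts, 22% of all probe sets passed between cultivars in stressed roots and 19.3% in control roots. Under drought 31.9% passed in Nootripathu and 38.1% in IR20. The part of tissue makeup in the SD1 and CYP714C2 differences was not tested.

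The pathway around SD1 was read from 5 lists with 50 names, of which 18 genes were measured, SD1 and CYP714C2 among them. A gene with several probe sets is given by the one with the highest mean signal, and the probe sets given for KS1, KO2, GAMYB, RAMY3D and RAMY3E may match several transcripts by their identifiers. In stressed roots 4 of the 18 were higher and 1 was lower in Nootripathu, with a median of -0.03, against -0.06 for all probe sets, of which 22% passed in either direction. In control roots 5 were higher and 3 lower, with a median of -0.01, against 0.04 for all probe sets, of which 19.3% passed. With a low-signal filter, array weights or centring on the array medians, 4 were lower in control roots. EUI1, at -0.34 as deposited (limma adjusted p = 0.0554), then passed (limma adjusted p of 0.0222 to 0.049). The count of lower genes in control roots fell on leaving out any single control array and rose on leaving out either stressed IR20 array. That in stressed roots fell without the first stressed Nootripathu array and rose without the first stressed IR20 array. Under drought 3 rose and 6 fell in each cultivar, with medians of -0.12 in Nootripathu and -0.02 in IR20, against -0.00 and 0.10 for all probe sets, of which 31.9% and 38.1% passed. In Nootripathu 8 fell with array weights and 5 with centring on the array medians. With only the arrays compared 2 rose and 5 fell in IR20. Fewer fell in each cultivar on leaving out any array except those of stressed IR20, and more fell in Nootripathu without either of those. With poly-A scaling none of the 18 rose in either cultivar, 14 fell in Nootripathu and 7 fell in IR20. The interaction passed for 2 genes with a positive and 1 with a negative sign, CPS1 and KS1 against SD1, beside 19.6% of all probe sets. Without the second stressed IR20 array 4 were positive, without the second control Nootripathu array 1 was, and without the first stressed IR20 array 2 were negative.

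**Figure D2:**
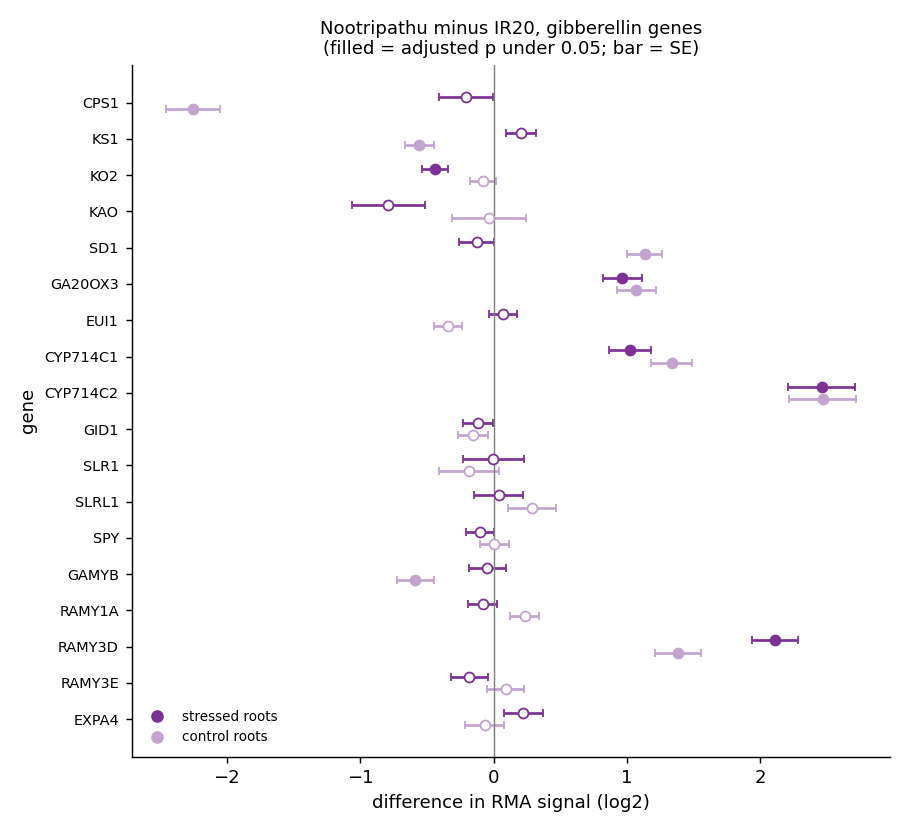
Difference in RMA signal (log2), Nootripathu minus IR20, for the 18 measured gibberellin genes, in stressed roots (dark) and control roots (light). Filled points passed the limma test at an adjusted p of 0.05, bars are SE, and positive values are higher in Nootripathu. CYP714C2, RAMY3D, CYP714C1 and GA20OX3 were higher in Nootripathu in both conditions, and SD1 in control roots alone.

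Among the early enzymes, CPS1, which makes ent-copalyl diphosphate at the start of the pathway, was lower in control Nootripathu than in control IR20 and fell under drought in both cultivars. CPS1 read 3.59 and 4.22 in stressed Nootripathu, 6.27 and 6.08 in control Nootripathu, 3.99 and 4.24 in stressed IR20, and 8.49 and 8.36 in control IR20. The stressed groups overlapped and the control groups did not. The cultivars differed by -0.21 ± 0.20 in stressed roots (limma adjusted p = 0.509) and by -2.25 ± 0.20 in control roots (limma adjusted p = 0.000146). Drought changed CPS1 by -2.27 ± 0.20 in Nootripathu (limma adjusted p = 6.69e-05) and by -4.31 ± 0.20, or 19.9-fold, in IR20 (limma adjusted p = 1.55e-06). The interaction was 2.05 ± 0.28 (limma adjusted p = 0.00207), opposite in sign to that of SD1. On the stressed arrays of both cultivars CPS1 lay under the array medians of 5.29 to 5.35. A part of low signal in this interaction was not tested.

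KS1, ent-kaurene synthase, read 8.41 and 8.42 in stressed Nootripathu, 7.53 and 7.45 in control Nootripathu, 8.09 and 8.33 in stressed IR20, and 8.07 and 8.03 in control IR20. It rose under drought in Nootripathu by 0.92 ± 0.11 (limma adjusted p = 0.00036), a difference that was 0.03 with poly-A scaling. Its control difference between cultivars was -0.56 ± 0.11 (limma adjusted p = 0.00968). That call was lost without either control IR20 array or without the second control Nootripathu array, with limma adjusted p of 0.0602, 0.051 and 0.0804. With poly-A scaling it was -0.35 and did not pass (limma adjusted p = 0.638).

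KO2, an ent-kaurene oxidase whose record carries several KO names, was lower in Nootripathu in stressed roots by 0.44 ± 0.10 on the log2 scale (limma adjusted p = 0.0154). The call was lost without the first stressed Nootripathu array (limma adjusted p = 0.106), with only the arrays compared (limma adjusted p = 0.0739) and with poly-A scaling (limma adjusted p = 0.478). On the second KO2 probe set the groups overlapped and the difference was -0.08 ± 0.10 (limma adjusted p = 0.621). KAO, ent-kaurenoic acid oxidase, rose in IR20 under drought by 1.24 ± 0.27 (limma adjusted p = 0.00782). Without the second stressed IR20 array the KAO difference was 0.80, and without the first control IR20 array it did not pass (limma adjusted p = 0.0545). With poly-A scaling it was 0.63 and did not pass (limma adjusted p = 0.111).

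GA20OX3, a second 20-oxidase, was higher in Nootripathu in both conditions and fell under drought in both cultivars. It read 8.68 and 8.92 in stressed Nootripathu, 11.40 and 11.43 in control Nootripathu, 7.66 and 8.01 in stressed IR20, and 10.27 and 10.41 in control IR20. No group overlapped another. The cultivar difference was 0.97 ± 0.14 in stressed roots (limma adjusted p = 0.0024) and 1.07 ± 0.14 in control roots (limma adjusted p = 0.00131). With poly-A scaling the stressed difference was 0.88 and did not pass (limma adjusted p = 0.0636). Drought changed GA20OX3 by -2.61 ± 0.14 on the log2 scale in Nootripathu, 6.12-fold lower (limma adjusted p = 5.31e-06), and by -2.51 ± 0.14 in IR20, 5.69-fold lower (limma adjusted p = 4.55e-06). The interaction was -0.10 ± 0.20 (limma adjusted p = 0.76), beside the -1.26 of SD1.

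**Figure D3:**
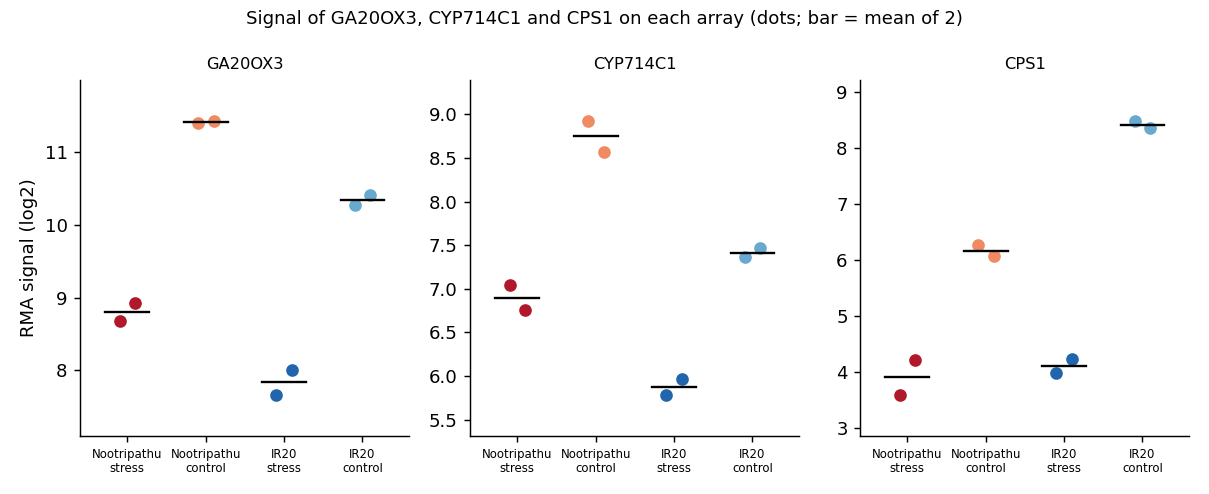
RMA signal (log2) of GA20OX3, CYP714C1 (its probe set of highest mean signal) and CPS1 on every array, with dots for arrays and a bar for the mean of 2. All 3 genes were lower in stressed than in control roots of each cultivar, and CPS1 was highest in control IR20 at 8.49 and 8.36. Each panel has its own vertical scale.

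CYP714C1 (LOC4351345) is the annotated neighbour of CYP714C2 in RefSeq assembly ASM3414082v1, with 0 genes starting between them. Its probe set of highest mean signal read 7.04 and 6.75 in stressed Nootripathu, 8.92 and 8.57 in control Nootripathu, 5.78 and 5.96 in stressed IR20, and 7.36 and 7.47 in control IR20. The groups were separate within each comparison. Nootripathu was higher by 1.02 ± 0.15 in stressed roots (limma adjusted p = 0.00253) and by 1.33 ± 0.15 in control roots (limma adjusted p = 0.000582). Unlike CYP714C2, for which no drought difference passed, CYP714C1 changed under drought by -1.85 ± 0.15 in Nootripathu and -1.54 ± 0.15 in IR20 (limma adjusted p = 4.81e-05 and 9.94e-05); this contrast between the neighbours was not itself tested.

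The other CYP714C1 probe set read 4.04 and 4.00 in stressed Nootripathu, 5.13 and 5.32 in control Nootripathu, 4.16 and 4.04 in stressed IR20, and 4.31 and 4.33 in control IR20. It did not follow the first in stressed roots, where the cultivars differed by -0.08 ± 0.11 (limma adjusted p = 0.658). In control roots it was higher in Nootripathu by 0.90 ± 0.11 (limma adjusted p = 0.000677). Its interaction was -0.98 ± 0.15 (limma adjusted p = 0.00351; 0.0712 with poly-A scaling), against -0.31 ± 0.22 on the first probe set (limma adjusted p = 0.362).

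EUI1, a P450 that inactivates gibberellins by epoxidation, fell under drought in IR20 by 0.47 ± 0.10 on the log2 scale (limma adjusted p = 0.00791). It read 7.13 and 7.26 in stressed IR20 and 7.73 and 7.60 in control IR20. Its Nootripathu difference was -0.06 ± 0.10 (limma adjusted p = 0.742), and the interaction of 0.41 did not pass (limma adjusted p = 0.0892). Without the first control IR20 array the IR20 fall did not pass (limma adjusted p = 0.0548).

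**Figure D4:**
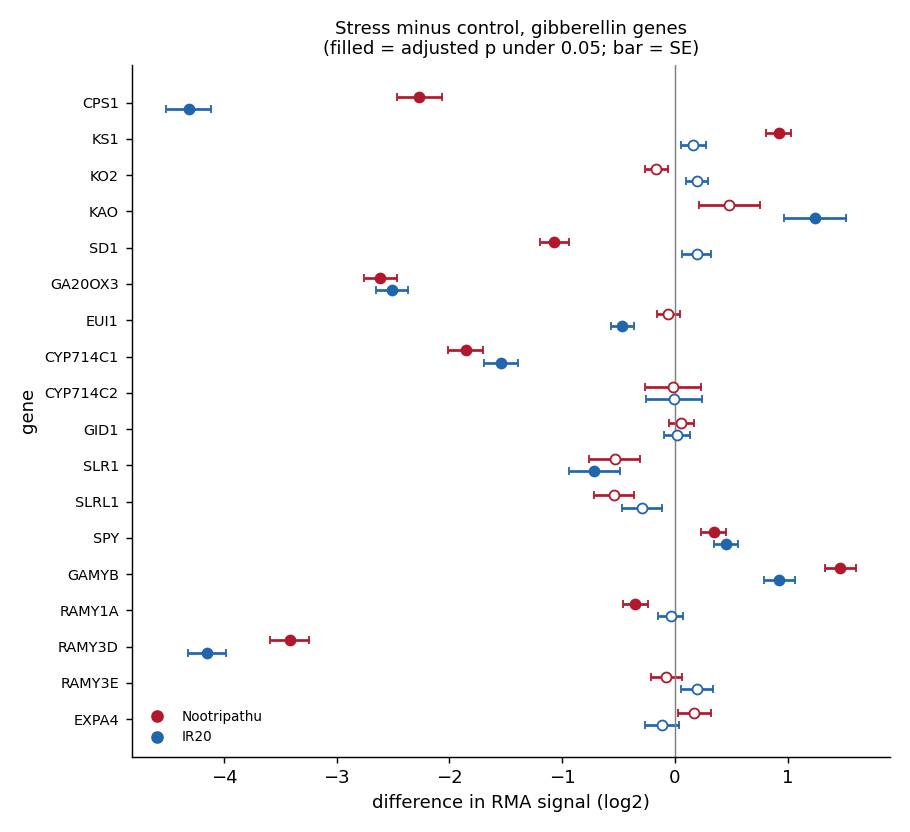
Difference in RMA signal (log2), stress minus control, for the 18 measured gibberellin genes in Nootripathu (red) and IR20 (blue). Filled points passed the limma test at an adjusted p of 0.05, bars are SE, and negative values are lower under drought. SD1 fell in Nootripathu alone, and GA20OX3, CYP714C1, CPS1 and RAMY3D fell in both cultivars.

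In signalling, 2 of 5 measured genes rose under drought in Nootripathu and none fell, and 2 rose and 1 fell in IR20, beside 31.9% and 38.1% of all probe sets past the threshold. GAMYB, a MYB factor that acts downstream of gibberellin in cereal aleurone, read 9.97 and 9.92 in stressed Nootripathu, 8.52 and 8.43 in control Nootripathu, 9.86 and 10.13 in stressed IR20, and 8.91 and 9.21 in control IR20. It rose by 1.47 ± 0.14 in Nootripathu (limma adjusted p = 9.67e-05) and by 0.93 ± 0.14 in IR20 (limma adjusted p = 0.000992), and with poly-A scaling neither rise passed (0.57 and 0.32, limma adjusted p = 0.0842 and 0.399). In control roots GAMYB was lower in Nootripathu by 0.59 ± 0.14 on the log2 scale (limma adjusted p = 0.0204), a call lost without either control Nootripathu array or without the second control IR20 array (limma adjusted p of 0.0773 to 0.14). With poly-A scaling that difference was -0.39 and did not pass (limma adjusted p = 0.61).

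SPY, a glycosyltransferase that restrains gibberellin responses, rose by 0.34 ± 0.11 in Nootripathu and 0.45 ± 0.11 in IR20 (limma adjusted p = 0.0427 and 0.0115), and with poly-A scaling both differences turned negative (-0.55 and -0.15) and did not pass. The Nootripathu call of SPY was lost on leaving out any array except those of stressed IR20 (limma adjusted p of 0.0679 to 0.201), and the IR20 call without the second control IR20 array (limma adjusted p = 0.0588). SLR1, the DELLA repressor of gibberellin responses, fell in IR20 by 0.72 ± 0.23 on the log2 scale (limma adjusted p = 0.0383). That call was lost on leaving out any array except the second of stressed IR20, and without the first stressed IR20 array the difference was -0.35. In Nootripathu SLR1 read 9.68 and 9.84 in stressed and 10.38 and 10.21 in control roots. That difference of -0.53 did not pass, and neither did the SLR1 interaction of 0.18. With only the arrays compared, SLR1 passed in Nootripathu (limma adjusted p = 0.0145) and not in IR20 (limma adjusted p = 0.0863). SLR1 also passed in Nootripathu with array weights (limma adjusted p = 0.026). SLRL1 changed by -0.54 in Nootripathu and -0.29 in IR20, and neither passed (limma adjusted p = 0.0552 and 0.251). The Nootripathu call of SLRL1 lay near the threshold. It passed with only the arrays compared, array weights, the replicate block, the low-signal filter or another variance prior (limma adjusted p of 0.00845 to 0.0464). No difference passed for the receptor GID1, which read 11.91 to 12.25 on the 8 arrays, with a stress minus control difference of 0.06 ± 0.11 in Nootripathu and 0.02 ± 0.11 in IR20.

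Among the genes of the responsive list, RAMY3D, an alpha-amylase gene known for induction by sugar starvation, moved most. Whether gibberellin has a part in its differences was not tested. It read 7.58 and 7.72 in stressed Nootripathu, 11.04 and 11.09 in control Nootripathu, 5.26 and 5.81 in stressed IR20, and 9.63 and 9.74 in control IR20. No group overlapped another. It was higher in Nootripathu by 2.11 ± 0.17 in stressed roots (limma adjusted p = 9.81e-05) and by 1.38 ± 0.17 in control roots (limma adjusted p = 0.000862). Drought changed it by -3.42 ± 0.17 in Nootripathu and -4.15 ± 0.17 in IR20 (limma adjusted p = 3.58e-06 and 9.11e-07). Its second probe set, whose identifier marks no match to several transcripts, was also higher in Nootripathu in both conditions (1.23 in stressed and 0.96 in control roots), but its drought differences of -0.07 in Nootripathu and -0.34 in IR20 did not pass. No comparison passed for RAMY3E, another alpha-amylase gene, or for the expansin gene EXPA4. Both had low signals on all arrays, 3.82 to 4.22 for RAMY3E and 3.07 to 3.55 for EXPA4, so a response could be missed. RAMY1A fell in Nootripathu by 0.35 ± 0.11 on the log2 scale (limma adjusted p = 0.0415), at signals of 2.98 to 3.48 close to the lowest on the arrays. That call was lost on leaving out any array except those of stressed IR20, with differences of -0.45 to -0.25.

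The named genes whose pattern was most like that of SD1 over the 8 arrays were IRL2, a chitinase gene (LOC4351188), CERK1, GDH2 and DRM2, with Pearson correlations of 0.966, 0.959, 0.956, 0.953 and 0.938 among 2458 genes ranked. IRL2 had mean log2 signals of 5.61 in stressed Nootripathu, 8.65 in control Nootripathu, 6.39 in stressed IR20 and 5.97 in control IR20. The most opposite were ACC2, RPL39C, APX7, COQ5 and cbp31, with correlations of -0.986 to -0.973. Correlation does not measure size of change. The SD over the 8 arrays was 0.13 to 0.34 for these opposite genes and 0.27 for CERK1 and DRM2, against 0.50 for SD1. It was 0.63 for the chitinase gene, 0.80 for GDH2 and 1.27 for IRL2. These correlations describe 8 arrays in 4 groups that share their cultivars and treatments.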

How the data were processed

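The authors deposited RMA signals on the log2 scale for 8 arrays of the Affymetrix rice array, made with Expression Console 3.0 per the submitters' processing notes, from 2 ug of root RNA per the labels' protocols. The depth of an array is not a count, so the number of arrays limits the precision. Of 57381 probe sets, 123 controls were left out. In the annotation, 22436 probe sets had exactly 1 gene, 95 had several and the rest none.

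Differences were fitted with limma 3.58.1 in R 4.3.3, with 1 mean for each of the 4 groups over all probe sets, and p-values were adjusted by the Benjamini-Hochberg method over 57258 probe sets (threshold 0.05, two-sided). Contrasts were Nootripathu minus IR20 in stressed and control roots, stress minus control in each cultivar, and the interaction. The fit was tested on simulated data. Named besides SD1 and CYP714C2 were, per list and comparison, at most the 2 largest rises and falls past the threshold with groups that did not overlap, and a few further measured genes given as values. Likeness to SD1 took the 5 highest and 5 lowest correlations. Names that matched more than 1 gene, such as GID2, were left out. Members and lists were chosen with earlier results of these data known. Alternatives covered scaling, filters, the replicate block, array weights, the variance prior and each array left out.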

Additional observations from a re-analysis of the deposited data

Results flagged for a closer look

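The drought effect differed between the cultivars for 4 probe sets of the gibberellin lists, each by the limma interaction term over all probe sets, as Nootripathu minus IR20. The SD1 term was -1.26 (adjusted p = 0.00279), and that of the second CYP714C1 probe set was -0.98 (limma adjusted p = 0.00351). For CPS1 the term was 2.05 (limma adjusted p = 0.00207) and for KS1 0.76 (limma adjusted p = 0.0129, and 0.0601 without the second control Nootripathu array). With poly-A scaling the KS1 term was 0.47 (limma adjusted p = 0.589) and the CYP714C1 term was -1.27 (limma adjusted p = 0.0712), and neither passed. The scaling moved every interaction term by -0.29, so by construction the positive KS1 term shrank and the negative CYP714C1 term grew in size. CPS1 read 3.59 to 4.24 on the stressed arrays, and that CYP714C1 probe set read 4.00 to 4.33 outside control Nootripathu. These signals lie under the array medians of 5.29 to 5.35, and a part of low signal was not tested. SD1 read 5.28 to 5.71 outside control Nootripathu, close to those medians, and a part of signal level in its term was not tested. Across all probe sets 19.6% passed the same test. Groups of 2 arrays allowed no search for single arrays far from the rest.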

How the results depend on the processing

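SD1 kept its direction in control roots, in Nootripathu under drought and in the interaction under every alternative run, and each stayed past the threshold, with ranges of 1.01 to 1.34, -1.96 to -1.001 and -1.55 to -1.13. Scaling to poly-A controls gave 4386 probe sets past the threshold between cultivars in stressed roots, 4710 in control roots, 43988 under drought in Nootripathu and 3228 in the interaction, against 12601, 11048, 18267 and 11204 as deposited. With only the arrays compared, the stressed count was 7506. Leaving out 1 array gave 7266 to 14365 probe sets in stressed roots, 6415 to 14494 in control roots and 6509 to 14153 in the interaction. With poly-A scaling CYP714C2 changed under drought in Nootripathu by -0.91 (limma adjusted p = 0.00787) and -0.68 (limma adjusted p = 0.0411) on its probe sets and in IR20 by -0.81 on probe set 2 (limma adjusted p = 0.0382). The scaling moves every probe set of a comparison by the same amount, under drought by -0.89 in Nootripathu and -0.61 in IR20, which by construction turned 25 signs, 6 of them past the threshold with one scaling or the other. Those 6 were, in Nootripathu, CYP714C2 probe set 2 (-0.68), GID1 (-0.83 and -0.66), SPY (-0.55) and EXPA4 (-0.72) and, in IR20, SPY (-0.15). Leaving out 1 array gave a CYP714C2 probe set 2 interaction of 0.33 to 0.50. Of 1757 results under 16 alternatives, 47 lost the call and 41 gained one with the same sign, and 70 changed sign, 64 of them not past the threshold under either setting. Same-numbered arrays correlated at -0.01 to 0.21 in their deviations from group means and the labels do not pair them. The replicate block gave 12674 probe sets in stressed roots, 11080 in control roots and 11251 in the interaction, and changed 3 of 115 results: SPY in Nootripathu (limma adjusted p = 0.0565) lost its call, and SLRL1 in Nootripathu (0.0374) and the RAMY3D interaction (0.0449) gained one. With 2 arrays per group, small differences could be missed.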
